A study of Rattus norvegicus with 16 samples.

Results

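Collagen chains are the subunits of the collagens, the most abundant proteins of bone and cartilage matrix. The members described here were all probe sets of the array whose single gene symbol was that of a collagen chain, written Col, a type number, the letter a and a chain number. There were 58 of them, for 41 of 14217 genes, among 31042 probe sets that were not controls. They were grouped by type into bone collagens (types I and V, 9 probe sets of 5 genes), cartilage collagens (types II, IX, X and XI, 11 probe sets of 7 genes), basement membrane collagens (types IV, XV and XVIII, 11 probe sets of 7 genes) and all others (27 probe sets of 22 genes). The arrays measured RNA of the proximal femur, the hip end of the thigh bone, from 4-week-old rats of 4 inbred strains, with 4 arrays each. The strains were Fischer 344 (F344), Lewis (LEW), Copenhagen 2331 (COP) and Dark Agouti (DA). No treatment or introduced allele is named for any strain, and the labels used here give no sex. Nor do they state that each array stands for an animal of its own, so a p-value here reflects the scatter among these arrays, which may be technical. The sample is a mixture of bone, growth cartilage, marrow and attached tissue, and in such bulk RNA fewer cells of a type and less RNA per cell cannot be told apart.

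A collagen molecule is a rope of chains wound around each other, made from 1 gene or from several partner genes, and the chains of one molecule must be present together for it to fold. Type I collagen is the main protein of bone and type V sets the width of its fibrils. Type II collagen is the main fibril of cartilage, with type XI inside the fibril, type IX on its surface and type X made by the enlarged chondrocytes of the growth plate. Type IV collagen forms the sheet of basement membranes, such as those around blood vessels, and types XV and XVIII carry side chains that attach to those sheets.

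Reference sequence before a start of 6 of the genes is shown because the results turn on them. Col1a2 was the collagen gene on the chromosome of the study's skeletal locus, and Col11a2 a cartilage chain that differed between strains. Col8a1 and Col8a2 were partner chains that each set different strains apart. Col4a1 and Col4a2 were partner chains that start next to each other. The sequences are those of RefSeq for the rat assembly GRCr8, not of these strains. Each runs 5′ to 3′ on the strand of its gene and ends at the base before the start used for it. For Col1a2 and the type IV pair that start bounds the gene's RefSeq span. The whole windows of Col11a2 and Col8a1 lie inside those spans, which begin at 4818492 (minus strand) and 56245998. The Col8a2 window runs past the start of its span at 143870754. Capitals mark matches on either strand, overlapping ones included. The motif searched for as a GC box was GGGCGG. That for a TATA box was TATAAA. The CCAAT box was searched by the letters of its name. The windows lie at chr4:33518307-33518556 (plus strand, Col1a2), chr20:4817649-4817898 (minus strand, Col11a2), chr11:56246532-56246781 (plus strand, Col8a1) and chr5:143870519-143870768 (plus strand, Col8a2). The last one, at chr16:84885521-84885596, is the whole interval of 76 bases between the start of Col4a2 on the minus strand and the start of Col4a1 on the plus strand, written on the plus strand.
Col1a2: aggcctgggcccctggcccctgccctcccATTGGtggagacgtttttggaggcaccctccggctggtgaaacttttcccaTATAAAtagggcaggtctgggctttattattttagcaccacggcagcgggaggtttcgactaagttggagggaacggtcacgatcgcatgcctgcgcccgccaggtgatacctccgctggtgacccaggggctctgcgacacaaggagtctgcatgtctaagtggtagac
Col11a2: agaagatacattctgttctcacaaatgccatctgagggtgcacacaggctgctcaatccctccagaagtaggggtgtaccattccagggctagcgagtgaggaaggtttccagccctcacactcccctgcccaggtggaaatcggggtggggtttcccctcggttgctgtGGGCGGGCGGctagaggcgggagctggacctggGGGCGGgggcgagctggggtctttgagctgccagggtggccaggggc
Col8a1: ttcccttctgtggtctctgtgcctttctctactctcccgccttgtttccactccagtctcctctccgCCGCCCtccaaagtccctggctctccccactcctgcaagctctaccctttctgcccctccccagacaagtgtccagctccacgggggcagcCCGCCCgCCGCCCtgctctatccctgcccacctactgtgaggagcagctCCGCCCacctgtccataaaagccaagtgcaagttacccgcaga
Col8a2: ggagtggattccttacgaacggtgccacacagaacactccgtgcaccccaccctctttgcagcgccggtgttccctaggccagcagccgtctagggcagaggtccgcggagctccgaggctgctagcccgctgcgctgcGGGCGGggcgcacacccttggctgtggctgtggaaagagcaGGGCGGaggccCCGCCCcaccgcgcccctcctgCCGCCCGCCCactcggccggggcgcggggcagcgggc
Col4a1 and Col4a2: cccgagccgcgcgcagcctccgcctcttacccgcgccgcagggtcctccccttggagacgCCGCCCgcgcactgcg
A TATA box and a CCAAT box were found upstream of Col1a2, while Col11a2, Col8a1, Col8a2 and the shared interval of type IV held GC boxes and neither of the other motifs. In the Col1a2 window the TATA box match began 170 bases and the CCAAT box match 221 bases before the start used. Among 33469 such windows of 250 bases before a start, 30.5% held a GC box, 34% a CCAAT box and 12.9% a TATA box. Of the 32 collagen genes with an entry, 18 held a GC box in at least 1 of their windows, 9 a CCAAT box and 4 a TATA box. Those shares do not apply to the shorter interval of type IV. A match is a match of letters and not a binding site.

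Each array gave a linear expression signal for every probe set, already scaled by the authors, with array medians of 303 to 325. Probe sets with a mean log2 signal at or above the 40th percentile, a signal of 174, were tested, which kept 18625 in all and 49 of the 58 collagen probe sets (34 genes). All differences are on the log2 scale, and a positive value means more signal in the strain named first. They come from limma, which models all 16 arrays together, and were called at an adjusted p under 0.05. Markers of bone were bright on every array, with 7 of the 10 listed genes measured and summed signals of 183373 to 227268. By the F-test 2 of the 7 were called, Phex and Alpl, both higher in F344 than in DA (0.55 and 0.53), and Phex was also higher in LEW than in DA (0.49). Markers of other tissues differed too. With each gene read from its brightest probe set, the F-test called 32.9% of all genes. Called lower in F344 were 7.54% against LEW, 10.6% against COP and 9.2% against DA. Called higher were 8.11% against DA, and 10.4% of all genes were called higher in F344 than in COP. Of 11 muscle markers 6 were (summed signals 376326 to 401513 against 277304 to 348715), as were 4 of 6 fat cell markers. COP was also lower than DA in 6 muscle and 3 fat cell markers, where 5.93% of all probe sets were, and higher in Myh1. F344 minus LEW and F344 minus DA each called 1 muscle marker higher and 0 fat cell markers, beside 6.96% and 8.11% of all genes. Camp and S100a8 of the neutrophil list were higher in COP and DA than in F344. All 6 measured erythroid markers of 8 passed the filter and the F-test called 5. Slc4a1, Epb42 and Klf1 were lower in F344 than in LEW (-0.38, -0.30 and -0.36) and Ahsp and Klf1 lower than in DA, with summed signals of 138391 to 158005 in F344, 157145 to 177126 in LEW, 145096 to 151626 in COP and 159611 to 190058 in DA. Their part in the collagen differences was not tested.

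Among the collagens, F344 carried the higher signal more often than the lower. The F-test over the 4 strains called 20 of the 49 probe sets, of 16 genes, against 31.2% of all probe sets tested. F344 minus LEW called 9, where 13.8% of all were called. Of these 8 were higher in F344 and 1 lower, beside 6.53% and 7.25% of all. F344 minus COP called 15, with 19.9% of all called, 10 of them higher and 5 lower, beside 9.4% and 10.5% of all. F344 minus DA called 14, with 16.1% of all called, 12 of them higher and 2 lower, beside 7.66% and 8.44% of all. LEW minus COP called 7 against 13.7% of all, 4 higher and 3 lower (6.25% and 7.49% of all). LEW minus DA called 6 against 10.4%, 3 higher and 3 lower (5.03% and 5.42% of all). COP minus DA called 6 against 11.9%, also 3 and 3 (5.94% and 5.93% of all). The share called was near that of all probe sets in the comparisons without F344. The median difference over the 49 was 0.070 for F344 minus LEW, 0.066 for F344 minus COP and 0.064 for F344 minus DA, where the medians over all probe sets tested were 0.0081, -0.0096 and -0.0017. These 3 comparisons share the F344 arrays. Several probe sets of 1 gene count separately here, and the 9, 15 and 14 called were of 7, 11 and 13 genes. With 1 probe set per gene, the share called in F344 minus LEW was near that of all probe sets tested. Without LEW replicate 1 the LEW minus COP count was 4, without DA replicate 2 or DA replicate 4 the LEW minus DA count was 3, and without COP replicate 4 or DA replicate 1 the COP minus DA count was 10.

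**Figure D1:**
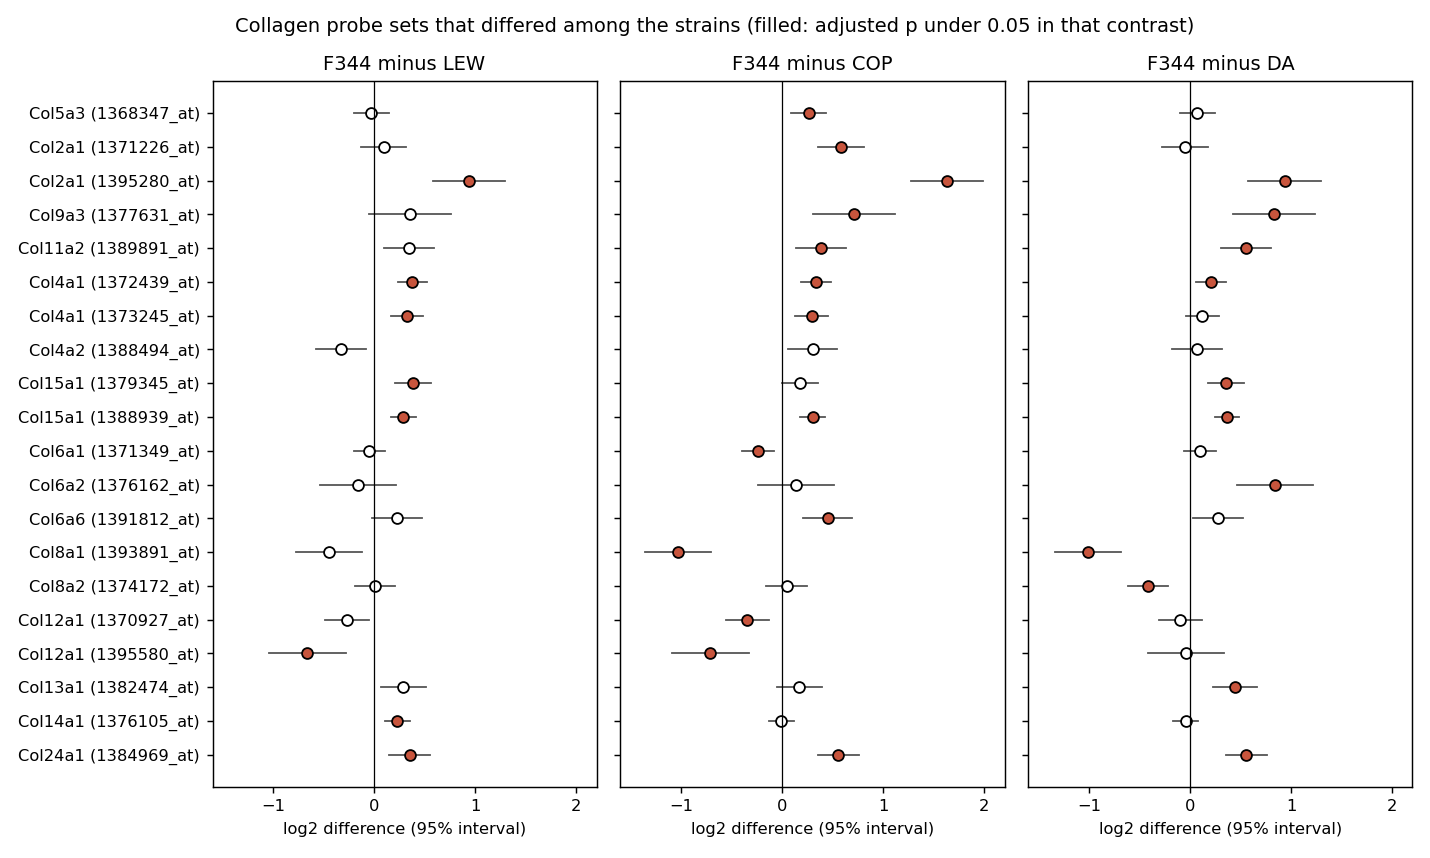
Log2 differences of F344 minus LEW, COP and DA (x axis, 1 panel each) for the 20 collagen probe sets called by the F-test (y axis), with 95% intervals; filled points passed the adjusted threshold of 0.05 in that comparison. Col2a1 on 1 of its probe sets lay farthest to the right in the COP panel, at 1.63, and Col8a1 farthest to the left, at -1.03.

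Few collagens of bone matrix passed the test. Of their 9 kept probe sets the F-test called 1, Col5a3, where it called 31.2% of all probe sets tested. F344 minus LEW called 0 with limma (13.8% of all), nor did any of the 9 have an unadjusted p under 0.05 there. LEW minus DA and COP minus DA also called 0, with 2 and 4 of the 9 at an unadjusted p under 0.05. F344 minus COP, F344 minus DA and LEW minus COP called 1 each, with 1, 2 and 1 at that level, and the F-test had 3. Col1a1 and Col1a2 encode the chains of type I collagen, and Col1a2 was the 1 collagen gene here on chromosome 4, the chromosome named in the study's design. For Col1a2 (1387854_at) the signals were 63272, 70466, 72578 and 72702 in F344. In LEW they were 73581, 66733, 67661 and 74181. COP gave 68914, 72096, 67948 and 63979, and DA 67744, 70592, 70571 and 87785. All 4 strains overlapped, and DA replicate 4 stood above the other 15 arrays. F344 minus LEW was -0.017 with a 95% interval of -0.17 to 0.14 (adjusted p = 0.915), and its other probe set gave 0.016 with an interval of -0.14 to 0.17. The sign of the first value turned under 5 of 28 alternatives. These signals lay at 91.5 to 100% of the highest signal of their array, and no saturation flags were used here. Col1a1 (1388116_at) ranged from 56190 to 75008 over the 16 arrays (78.6 to 96.0% of the highest signal) and was called in no comparison, its other probe set likewise.

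**Figure D2:**
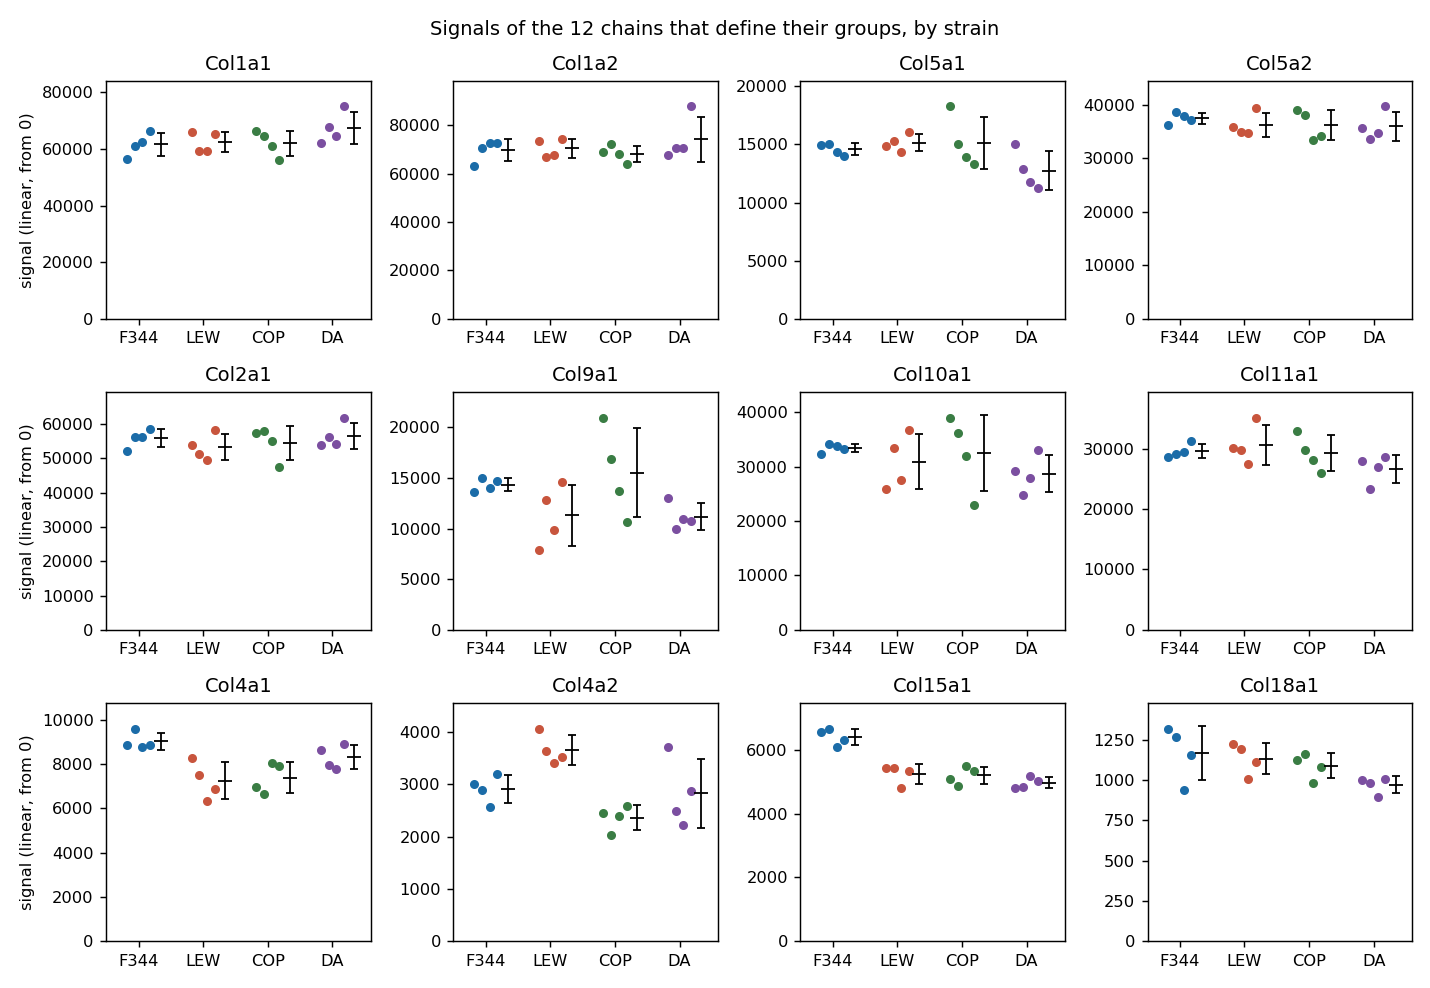
Signals (y axis, linear scale from 0) by strain (x axis) for the 12 chains that define their groups, on the brightest probe set of each gene. Points are arrays and black bars the mean and SD of 4. Type I and type V chains overlapped in all strains, Col9a1 and Col10a1 were spread widely in LEW and COP, and Col15a1 was higher on every F344 array (6096 to 6671) than on any other.

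Type V collagen has 3 chains. Col5a2 (1370895_at) ranged from 33456 to 39651 and was called nowhere. Col5a1 was called in F344 minus DA on 1 of its 2 probe sets (1376099_at, 0.21, SE 0.069, adjusted p = 0.0416), while the other gave the same 0.21 with a larger error (SE 0.088, adjusted p = 0.124). The call was lost without any 1 F344 array, LEW replicate 2, COP replicate 2, DA replicate 3 or DA replicate 4 (adjusted p 0.0505 to 0.127), and with cartilage markers that are not collagens as a covariate (0.14, adjusted p = 0.145). Col5a3, a less common type V chain, read 1818, 1796, 1783 and 1824 in F344 and 1618, 1469, 1366 and 1582 in COP. The COP arrays all lay below the F344 arrays, by 0.26 (SE 0.083, adjusted p = 0.0305), and F344 arrays were nearly equal to each other. COP was also below LEW, by 0.29 (adjusted p = 0.0212), with overlap. Leaving out any F344 array, COP replicate 2 or COP replicate 3 ended the first call (adjusted p up to 0.102), and leaving out LEW replicate 1 or 2 or COP replicate 2 or 3 ended the second (up to 0.0894).

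Cartilage collagens were higher in F344 than in the other strains on average, and their arrays were far more alike in F344. The F-test called 4 of 10 kept probe sets, those of Col9a3, Col11a2 and 2 of Col2a1. Against COP 4 were called and against DA 3, all higher in F344, and against LEW 1. Of all probe sets tested, 31.2% were called by the F-test. Those higher in F344 were 9.4% against COP, 7.66% against DA and 6.53% against LEW. The median SD of the log2 signal within a strain was 0.066 for F344 against 0.26 for LEW, 0.29 for COP and 0.17 for DA. Over all probe sets tested it was 0.12, 0.15, 0.14 and 0.15. Single arrays lay at the ends. LEW replicate 4 was the highest of its strain for 10 of the 10 probe sets and LEW replicate 1 the lowest for 8, while COP replicate 1 was the highest for 8 and COP replicate 4 the lowest for 9.

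The same arrays stood apart in cartilage genes that are not collagens. Of the 12 listed markers 7 passed the filter, among them Acan, the main proteoglycan of cartilage, Comp, Cnmd, Hapln1 and Matn1. The mean of their centred log2 signals was 0.20 to 0.23 on the F344 arrays, -0.67 on LEW replicate 1 and 0.52 on LEW replicate 4, 0.51 on COP replicate 1 and -0.46 on COP replicate 4, and -0.31 to 0.032 in DA. Summed signals of the 7 were 38794 to 39296 in F344, 25005 to 48392 in LEW, 25986 to 50673 in COP and 28062 to 38442 in DA. With limma 0 of the 7 were called in any comparison, although 3 had an unadjusted p under 0.05 in F344 minus LEW, 2 in F344 minus DA and 1 in LEW minus COP. Sox9, the transcription factor that marks chondrocytes, had no value used here.

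**Figure D3:**
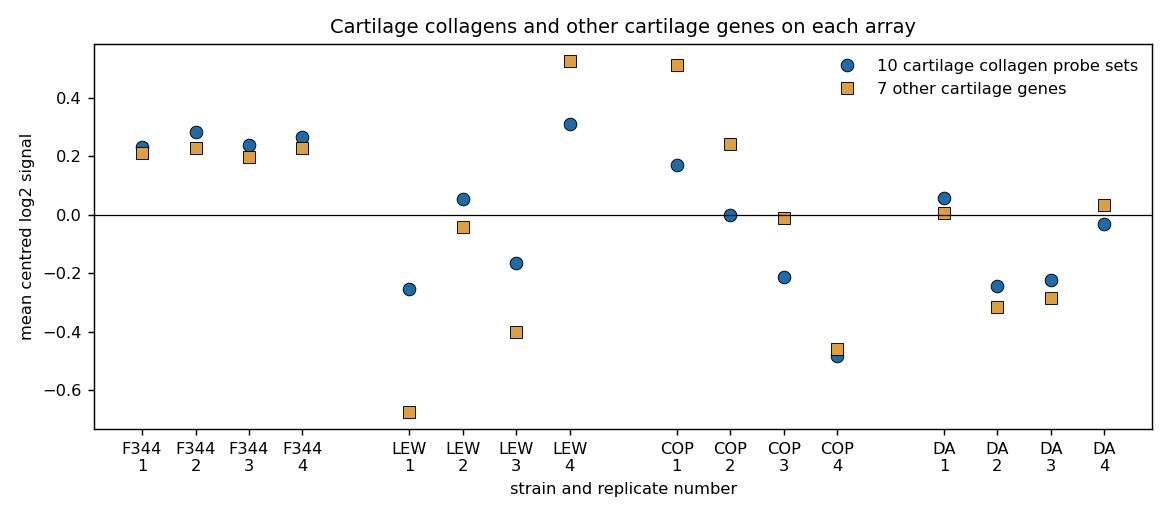
Mean centred log2 signal (y axis) on each of the 16 arrays (x axis) for the 10 kept cartilage collagen probe sets (circles) and 7 cartilage genes that are not collagens (squares). The 4 F344 arrays lay together, at 0.23 to 0.28 for the collagens, while LEW ran from -0.25 to 0.31 and COP from -0.48 to 0.17.

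Col9a3 and Col11a2 were the chains of types IX and XI that differed. Col9a3 (1377631_at) read 15571, 16567, 15964 and 16234 in F344. LEW gave 9588, 14018, 10584 and 17630, COP 13911, 11500, 9528 and 6148, and DA 11106, 7634, 7985 and 9822. Every F344 array was above every COP and DA array, and LEW spanned the F344 values. The differences were 0.71 from COP (SE 0.19, adjusted p = 0.0125) and 0.83 from DA (SE 0.19, adjusted p = 0.00494), and 0.35 from LEW did not pass. Col11a2 (1389891_at) read 12152, 12395, 11582 and 11163 in F344 and 8701, 8360, 6766 and 8505 in DA, without overlap and with a difference of 0.55 (SE 0.12, adjusted p = 0.00252). COP gave 11119, 9296, 8487 and 7576, all below F344, with a difference of 0.39 (adjusted p = 0.0251) that was lost without F344 replicate 1 or 2 or COP replicate 3 or 4 (adjusted p up to 0.0937).

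With the mean of the 7 other cartilage markers as a covariate, an alternative chosen after seeing the data, Col9a3 differed from COP by 0.57 and from DA by 0.49, and Col11a2 by 0.31 and 0.36, all still called. Col9a1, the partner of Col9a3, was called nowhere: its 4 F344 signals were 13576 to 14972, while LEW ran from 7900 to 14586, COP from 10669 to 20956 and DA from 9971 to 13040. Every F344 array was above every DA array, and LEW and COP overlapped F344. Col9a2, the remaining type IX chain, ran from 2542 to 6747. Col10a1, the chain of hypertrophic chondrocytes, ran from 32386 to 34215 on the F344 arrays, from 25849 to 36664 on those of LEW, from 22979 to 39008 on those of COP and from 24725 to 33001 on those of DA, and was not called. Both kept probe sets of Col11a1 were not called either, the brightest (1392915_at) at 23374 to 35150 over all arrays.

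Col2a1, the chain of type II collagen, was measured by 3 probe sets that gave different answers. The brightest (1387767_a_at) was flat, at 47470 to 61920 over the 16 arrays with no call. Its signals lay at 64.9 to 83.5% of the highest signal of their array, and no saturation flags were used here. On 1395280_at the F344 arrays read 6001, 6194, 6194 and 5768. LEW gave 2551, 3083, 2676 and 4675, COP 2822, 1818, 1793 and 1571, and DA 4091, 2950, 2657 and 3105. F344 was above every array of the other strains, by 0.94 from LEW (SE 0.17, adjusted p = 6.34e-04), 1.63 from COP (adjusted p = 6.09e-07) and 0.93 from DA (adjusted p = 6.56e-04). LEW was above COP by 0.69 and COP below DA by 0.70. The dimmest probe set (1371226_at) put COP alone apart. It read 1291, 1663, 1209 and 1615 in COP against 1953 to 2273 in F344, 1920 to 2206 in LEW and 1997 to 2792 in DA, with differences of 0.58 (F344 minus COP), 0.49 (LEW minus COP) and -0.64 (COP minus DA). With the cartilage covariate the differences of F344 on 1395280_at were 0.66, 1.52 and 0.66 from LEW, COP and DA. The 2 probe sets that differed lay far below the top of the scale, at 1.71 to 9.48% of the highest signal, and COP was the lowest strain on both.

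**Figure D4:**
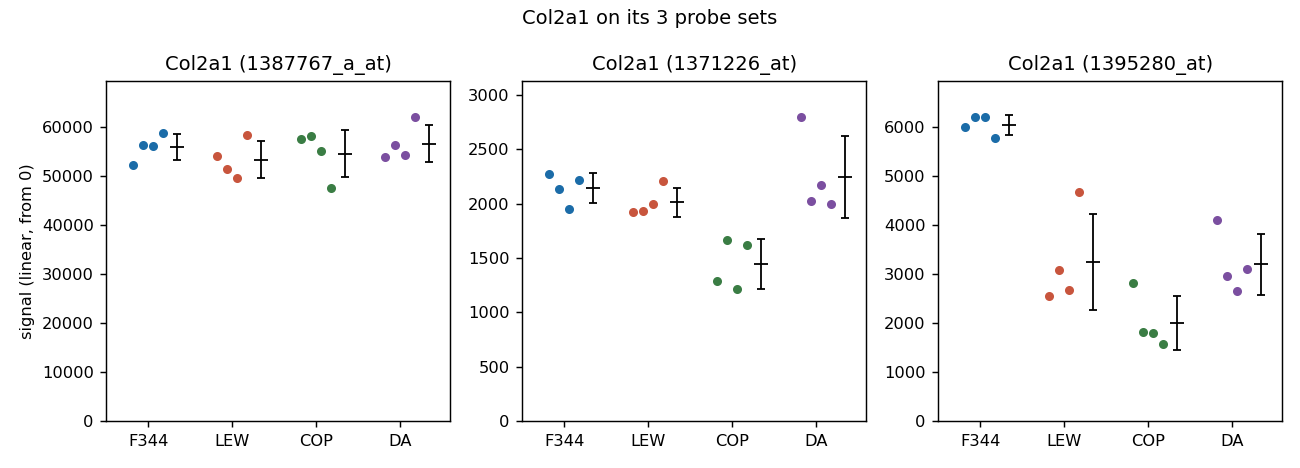
Col2a1 signals (y axis, linear scale from 0, its own scale in each panel) by strain (x axis) on its 3 probe sets. Points are arrays and black bars the mean and SD of 4. The left panel is flat, the middle panel has COP low (1209 to 1663) and the right panel has F344 high (5768 to 6194).

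Basement membrane collagens were also higher in F344, in Col4a1 and Col15a1, while Col4a2 was high in LEW. The F-test called 5 of the 8 kept probe sets, of 3 of the 5 genes, against 31.2% of all probe sets tested. Col4a1, a chain of the common type IV network, read 6983, 7370, 6835 and 6847 on 1372439_at in F344. In LEW it read 5930, 5685, 4697 and 5350, in COP 5333, 5339, 5631 and 5917, and in DA 6687, 5719, 5694 and 6187. Every F344 array was above every other array. The differences were 0.38 from LEW (SE 0.070, adjusted p = 7.68e-04), 0.34 from COP (adjusted p = 0.00173) and 0.21 from DA (adjusted p = 0.0468). On the other probe set (1373245_at) they were 0.32, 0.29 and 0.12, and the last was not called. The call against DA was lost under 14 of 27 alternatives, among them the cartilage covariate and leaving out any F344 array, LEW replicate 2, COP replicate 2 or 3 or DA replicate 2, 3 or 4 (adjusted p up to 0.135).

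Col4a2, the partner of Col4a1 in the same network, had another order of strains. It read 4067, 3647, 3411 and 3527 in LEW. F344 gave 3001, 2895, 2559 and 3195, COP 2450, 2036, 2391 and 2586, and DA 3724, 2499, 2215 and 2874. LEW was above every F344 and COP array and overlapped DA through DA replicate 1. LEW minus COP was 0.63 (SE 0.12, adjusted p = 6.84e-04) and LEW minus DA 0.40 (adjusted p = 0.0339), while F344 minus LEW, at -0.33, did not pass (adjusted p = 0.0680). The LEW minus DA call was lost without LEW replicate 1 or 2 or DA replicate 2, 3 or 4 (adjusted p up to 0.136). It was also lost with no filter, with no intensity trend in limma and with the 8 arrays of both strains alone (adjusted p 0.0524 to 0.0760). For Col4a2 one probe set was measured.

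Col15a1, whose protein bridges basement membranes and the fibrils beside them, read 6559, 6671, 6096 and 6315 on 1388939_at in F344. The 12 other arrays read 4799 to 5495. No F344 array overlapped them, and the differences were 0.29 from LEW (SE 0.058, adjusted p = 0.00146), 0.30 from COP (adjusted p = 7.50e-04) and 0.37 from DA (adjusted p = 1.22e-04). Its other probe set gave 0.38 from LEW and 0.35 from DA, both called, and 0.18 from COP, which was not. Col18a1, the source of endostatin, and Col4a5, on the X chromosome, were not called. Beside these, some markers of endothelium were higher in F344 and others were not. F344 minus LEW, COP and DA called 3, 3 and 2 of them, where 14.5%, 21.0% and 17.3% of all genes were called. Of the 7 measured, 4, 5 and 4 were above 0, with medians of 0.026, 0.16 and 0.031. Tek, Tie1 and Eng were not called against any strain. Of the 7 measured among 8, Kdr, the VEGF receptor, was higher in F344 by 0.33, 0.29 and 0.33 than in LEW, COP and DA, Pecam1 by 0.61 and 0.64 than in LEW and COP, and Emcn by 0.26 than in LEW, whereas Vwf was lower in F344 than in COP and DA (-0.32 and -0.39). Summed signals of the 7 were 13823 to 14243 in F344, 11980 to 13027 in LEW, 12396 to 12887 in COP and 12444 to 14187 in DA. Their part in the collagen differences was not tested.

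Type VIII collagen is a network-forming collagen known from the membranes under endothelia, and its 2 chains differed in different strains. Col8a1 read 504, 397, 408 and 668 in F344. LEW gave 535, 703, 650 and 764, COP 855, 1034, 1062 and 1005, and DA 896, 1223, 801 and 1013. F344 and LEW each lay below all arrays of COP and DA. F344 minus COP, at -1.03, was the most negative difference among the kept collagen probe sets (SE 0.16, adjusted p = 6.55e-05), with -1.01 for F344 minus DA (adjusted p = 1.06e-04). LEW differed from COP by -0.58 and from DA by -0.56. The former was lost without LEW replicate 1 (adjusted p = 0.0579) and the latter without LEW replicate 1 or DA replicate 2 or 4 (up to 0.0921). Col8a2 set DA apart instead. It read 4254, 3757, 3826 and 3946 in DA against 2647 to 3338 in F344, 2457 to 3723 in LEW and 2682 to 3040 in COP. All DA arrays were the highest, and the differences were -0.42 (F344 minus DA, adjusted p = 0.00479), -0.42 (LEW minus DA, adjusted p = 0.00555) and -0.46 (COP minus DA, adjusted p = 0.00282).

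Types XII and XIV are collagens that sit on the surface of fibrils in tendon, periosteum and other dense tissue. Col12a1 was lower in F344 than in COP on its 3 probe sets, with differences of -0.34 (1370927_at), -0.71 (1395580_at) and -0.42 (1398321_a_at). On 1395580_at the signals were 283, 410, 348 and 333 in F344 and 494, 265, 335 and 345 in DA. LEW gave 445, 534, 493 and 721 and COP 673, 581, 460 and 537. LEW and COP lay above all F344 arrays and overlapped DA through DA replicate 1. F344 minus LEW was -0.66 (SE 0.18, adjusted p = 0.0175), LEW minus DA 0.62 and COP minus DA 0.67. No other Col12a1 probe set was called in these comparisons. The smallest of the 3 values there was -0.19 for F344 minus LEW, 0.095 for LEW minus DA and 0.25 for COP minus DA. Only the difference from COP on this probe set (adjusted p = 0.00793) kept its call when any array was left out. On 1370927_at it was lost without F344 replicate 3 or 4 or COP replicate 1 (adjusted p up to 0.0705), and on 1398321_a_at without any F344 array or COP replicate 1 or 2 (up to 0.154). The other 3 on 1395580_at were lost as follows: F344 minus LEW without F344 replicate 1 or LEW replicate 4 (up to 0.0650), LEW minus DA without LEW replicate 2 or 4 or DA replicate 2, 3 or 4 (up to 0.120), and COP minus DA without COP replicate 1 or DA replicate 2 (up to 0.0756).

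Col14a1 was lower in LEW on 1 of its 2 probe sets (1376105_at). LEW read 6602, 6723, 6141 and 7219, and the 12 other arrays 7298 to 8931, without overlap. The differences were 0.23 from F344 (adjusted p = 0.0134), -0.24 (LEW minus COP, adjusted p = 0.00964) and -0.28 (LEW minus DA, adjusted p = 0.00403), and the first was lost without LEW replicate 3 (adjusted p = 0.0595). The other probe set (1376170_at) gave -0.050 (F344 minus LEW), 0.0022 (LEW minus COP) and 0.11 (LEW minus DA) for the same comparisons and no call. Markers of tendon and fibrous tissue, 7 measured of 8, also differed, in both directions. Dpt, a dermatopontin gene, was higher in LEW than in F344, and Tnmd, a tendon membrane protein, was lower in F344 than in COP (-0.38) and DA (-0.40). Clec3b, the gene of tetranectin, was far higher in F344 (948 to 1150) and LEW (803 to 1012) than in COP (10.7 to 75.1) and DA (16.3 to 92.1), with F344 minus COP at 5.24 and F344 minus DA at 4.61. The mean centred log2 signal of the list was 0.26 to 0.32 in F344, 0.30 to 0.51 in LEW, -0.56 to -0.14 in COP and -0.42 to -0.15 in DA. That gap leaned on Clec3b alone. The median difference of the 7 markers was -0.099 for F344 minus COP, 0.038 for F344 minus DA, -0.051 for LEW minus COP and -0.0013 for LEW minus DA. Summed signals were 75291 to 78124 in F344, 76146 to 89964 in LEW, 82730 to 87382 in COP and 73397 to 90856 in DA. Their part was not tested.

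Type VI collagen forms fine beaded filaments around cells. Col6a1 read 18146, 16094, 15338 and 15162 in COP against 13067 to 14261 in F344 and 11058 to 14069 in DA. LEW, at 13017 to 15673, overlapped COP and was not called against it. COP lay above F344 and DA. It exceeded DA by 0.33 (SE 0.075, adjusted p = 0.00502) and F344 by 0.24 (F344 minus COP -0.24, adjusted p = 0.0298), the last lost without F344 replicate 1 or 4 or COP replicate 1 or 2 (adjusted p up to 0.112). Its partner Col6a2 was low in DA on the dim probe set 1376162_at, with 416, 398, 280 and 346 in DA against 586 to 681 in F344 and 580 to 880 in LEW. DA lay below all of these and overlapped none, by 0.84 from F344 (adjusted p = 0.00265), 1.0 from LEW (adjusted p = 6.51e-04) and 0.70 from COP (adjusted p = 0.0137), the last lost without COP replicate 1 or DA replicate 3 (up to 0.0633). On the bright probe set 1371369_at the differences of F344, LEW and COP from DA were 0.013, -0.047 and 0.26, none called, and LEW minus COP was called at -0.30 (adjusted p = 0.0475). That call was lost without any F344 array, LEW replicate 1 or 3, COP replicate 1, 2 or 3 or DA replicate 2 or 3 (up to 0.175). Col6a6 was higher in F344 than in COP, by 0.45 (adjusted p = 0.00966), and Col6a3 and Col6a5 were not called.

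Col24a1, a fibril-forming chain known from bone, was higher in F344. It read 3624, 4075, 3588 and 3386 in F344, 2507, 2721, 2876 and 3438 in LEW, 2889, 2585, 2088 and 2470 in COP and 2460, 2715, 2316 and 2486 in DA. F344 was above every COP and DA array and overlapped LEW through LEW replicate 4. The differences were 0.56 from COP (SE 0.098, adjusted p = 3.21e-04), 0.56 from DA (adjusted p = 4.16e-04) and 0.35 from LEW (adjusted p = 0.0184). The last was lost without F344 replicate 2 or LEW replicate 1 or 2, and with the cartilage covariate (adjusted p 0.0555 to 0.0739). Col13a1, a membrane-spanning collagen, was higher in F344 than in DA by 0.44 (adjusted p = 0.00607). Col22a1, a collagen of tissue junctions, and Col27a1, a fibril-forming chain of cartilage, were not called by the F-test and were named after their values were seen. Col22a1 was higher in F344 than in LEW by 0.26 (adjusted p = 0.0423) and than in DA by 0.25 (adjusted p = 0.0447), and Col27a1 higher than in DA by 0.66 (adjusted p = 0.0378). Each of these 3 calls was lost without any 1 F344 array, and also without LEW replicate 1, 2 or 3 or COP replicate 2 (Col22a1 against LEW), LEW replicate 2, COP replicate 2 or any DA array (Col22a1 against DA) or DA replicate 2, 3 or 4 (Col27a1), with adjusted p up to 0.166. With the cartilage covariate all 3 calls were lost too, as Col27a1 differed by 0.35 (adjusted p = 0.130) and Col22a1 by 0.15 from LEW (adjusted p = 0.155) and 0.15 from DA (adjusted p = 0.168).

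Col3a1, the fibril chain of soft connective tissue, ranged from 44805 to 59439 and was not called, nor were Col16a1, Col25a1 and Col26a1. A total of 9 collagen probe sets fell below the filter and were not tested, with signals of 1.20 to 257 and a highest mean of 145. They were 1 of Col11a1 and all those of 7 genes: Col4a4 and Col4a6, the rarer type IV chains, Col7a1, of the anchoring fibrils of skin, Col17a1, of epithelial attachment plaques, Col19a1, Col20a1 and Col23a1. Among them Col7a1 read 17.2, 46.3, 21.0 and 119 in COP, against 133 to 209 in F344, 136 to 257 in LEW and 94.3 to 198 in DA. Of the 13 genes with several kept probe sets, each in 6 comparisons, 5 of the 78 pairs of gene and comparison had all probe sets called in the same direction, 18 had some called and some not, and 0 had opposite calls.

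Chains that join in one molecule were compared within each array as the log2 ratio of their brightest probe sets, centred over all arrays, for 7 pairs chosen after their values were seen. Such a ratio shows unequal change and not which chain changed. Col9a1 against Col9a3 was -0.34 to -0.28 in F344, -0.42 to -0.23 in LEW, 0.38 to 0.66 in COP and -0.0068 to 0.31 in DA. F344 and LEW overlapped each other and lay below COP and DA, although cartilage signals of LEW and COP differed widely between arrays. Col4a1 against Col4a2 was -0.56 to -0.42 in LEW, below the other 12 arrays, which ran from -0.25 to 0.35. Col8a1 against Col8a2 was -0.84 to -0.017 in F344 and 0.32 to 0.75 in COP. Col11a1 against Col11a2 was -0.38 to -0.13 in F344, below LEW (-0.059 to 0.32) and COP (-0.044 to 0.16). For Col1a1 against Col1a2, Col5a1 against Col5a2 and Col6a1 against Col6a2, the arrays of every pair of strains overlapped. By a two-sided exact permutation test, 12 of the 42 comparisons reached p = 0.0286, the smallest that 4 against 4 arrays allow, and after adjustment over the 42 (adjusted p = 0.1) 0 passed. At that smallest p, any could pass only if most of the 42 had reached it. The adjusted test therefore could not decide whether a single pair differed.

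**Figure D5:**
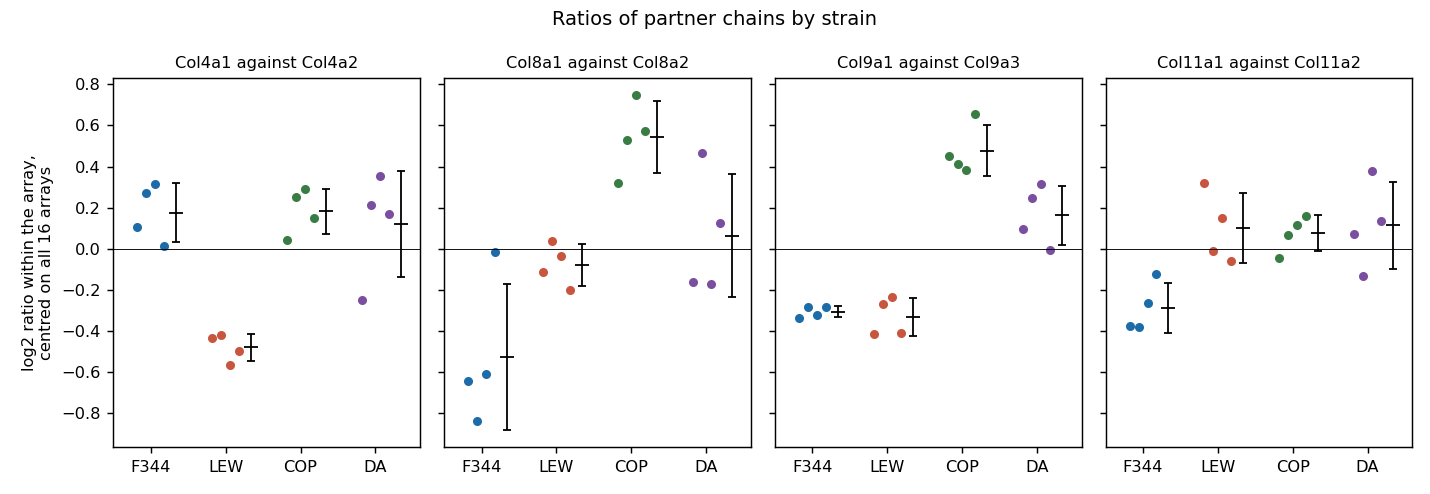
Log2 ratio of partner chains within each array, centred over the 16 arrays (y axis), by strain (x axis) for types IV, VIII, IX and XI. Points are arrays and black bars the mean and SD of 4. LEW is low for type IV (-0.56 to -0.42) and COP is high for type IX (0.38 to 0.66).

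Proteins that make, fasten, bind and degrade collagen were read from 6 lists, with each gene represented by its brightest kept probe set. Of all genes read this way, 32.9% were called by the F-test, 14.5% in F344 minus LEW (6.96% higher and 7.54% lower), 21.0% in F344 minus COP (10.4% and 10.6%) and 17.3% in F344 minus DA (8.11% and 9.2%). Of the enzymes and chaperones that hydroxylate and fold chains, 18 of 20 passed the filter and 8 were called by the F-test. P4ha3, a catalytic subunit of prolyl hydroxylase, had a mean signal of 941 ± 101 for F344 and 769 ± 131 for LEW, against 2025 ± 158 for COP and 2418 ± 133 for DA (SD over 4 arrays). The F344 and LEW arrays, at 605 to 1053, lay below all COP and DA arrays, at 1891 to 2585. F344 minus COP was -1.11 (adjusted p = 1.81e-07) and F344 minus DA -1.37 (adjusted p = 9.65e-09). P3h3, a member of the prolyl 3-hydroxylase family, was lower in LEW than in F344, by 0.72 (adjusted p = 3.61e-04), and Fkbp10, a collagen chaperone, was higher in F344 than in COP and DA, by 0.41 and 0.66. Serpinh1, the collagen chaperone HSP47, and P4hb, the other subunit of prolyl hydroxylase, were not called.

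Of the genes that trim propeptides and cross-link chains, 7 of 14 passed the filter and the F-test called 3. Lox, which cross-links collagen, was higher in F344 than in COP by 0.27 and in DA by 0.42, Bmp1, which removes the C-propeptide, by 0.31 and 0.25, and Pcolce, which helps Bmp1, than in DA by 0.35. Against LEW 0 of the 7 were called by limma, and 3 had an unadjusted p under 0.05. Among 10 of 13 proteins bound to fibrils, 3 were called by the F-test: Aspn and Tgfbi were lower in COP than in F344, by 0.49 and 0.31, and Prelp was lower in LEW than in COP, by 0.50. Of 5 collagen receptors measured among 10, 3 were called by the F-test and each comparison of F344 called 2, all higher in F344. Itga1 differed most, with F344 minus LEW, COP and DA at 2.74, 2.56 and 2.65. Its signals were 2050 to 2267 in F344 and 219 to 438 in the other strains. Itgb1, the beta chain that the collagen-binding integrins share, exceeded COP by 0.27 and Ddr2, a collagen-binding kinase, LEW by 0.19 and DA by 0.21. Among 7 of 11 transcription factors, 2 were called by the F-test. Trps1, a regulator of the growth plate, was higher in F344 by 0.64, 0.41 and 0.54 than in LEW, COP and DA, and Creb3l1, an activator of type I collagen genes in osteoblasts, by 0.51 and 0.48 than in COP and DA. Sp1 was lower in F344 than in LEW and Cbfb, the partner of Runx proteins, lower than in COP, and 5 of the 7 were below 0 in F344 minus LEW (median of the 7 -0.089). Runx2 and Sp7, the transcription factors of osteoblasts, were not analysed here. All 9 genes of collagen breakdown passed the filter and 4 were called by the F-test. Mmp8, the collagenase of neutrophils, was lower in F344 (differences of -0.36, -1.17 and -0.80 from LEW, COP and DA), beside the neutrophil marker Camp, with -0.44, -1.05 and -0.84. Timp1, an inhibitor of collagenases, was higher in F344 than in LEW by 0.45 and than in DA by 0.74. Mmp9 was higher in F344 than in DA, by 0.39, as were Mmp2 and Mmp13. LEW had the highest mean of Mmp9, with LEW minus DA at 0.62 and LEW minus COP at 0.39, both called. F344 minus LEW was -0.23 and not called. Mmp13 was also called higher in LEW and COP than in DA.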

How the data were processed

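RNA of the proximal femur was labelled with biotin and hybridised to 16 Affymetrix arrays, 4 per strain. The deposited intensity values, 1 linear signal for each probe set on each array, came from MAS5 according to the submitters' processing notes. Its version, its scaling target, any detection call and any filter are not given in the sources used here. Signals under 1 were set to 1 (255 values) and log2 was taken, with no further normalization. Probe sets were named through the annotation of the array platform, and all 58 collagen probe sets matched the RefSeq gene table of GRCr8. limma 3.58.1 (R 4.3.3) modelled the 16 arrays together, with 1 mean for each strain and an intensity trend in eBayes, 12 residual degrees of freedom and Benjamini-Hochberg adjustment over the 18625 kept probe sets. The fit was tested on simulated data. Partner ratios were tested with scipy 1.17.1 and figures drawn with matplotlib 3.10.9.

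Values per array are given for the chains that define each group and for probe sets called by the F-test whose arrays of 1 strain did not overlap those of another in a called comparison. Other probe sets of those genes follow by their differences. Members, gene lists and this rule were chosen with earlier results of these data known, so the lists are not independent evidence. Alternatives were quantile normalization, median centring, a pseudocount of 19.3, no filter, a stricter one at the 60th percentile, no trend, robust moderation, array weights, a replicate block, the 8 arrays of a pair of strains alone, 1 probe set per gene, leaving out each array and, added after seeing the data, the cartilage covariate. The number of arrays limits the precision.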

Additional observations from a re-analysis of the deposited data

Results flagged for a closer look

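In 4 of 116 sets of 4 arrays of 1 strain, 1 array stood apart: its gap to the nearest neighbour, as a share of the range of the 4, was past Dixon's 95% limit. Chance gives about 1 in 20 such sets, which is more than were seen. Col1a2 (1387854_at) read 87784.6 on DA replicate 4, above the 3 other DA arrays (gap 0.858 of the range), on the array with the highest maximum signal of all, 95393. Col4a1 (1373245_at) read 9598.69 on F344 replicate 2, above its strain (0.869). Col15a1 (1388939_at) read 4799.19 on LEW replicate 3, below its strain (0.866). Col12a1 (1370927_at) read 13677.6 on LEW replicate 4, above its strain (0.879), the array that was also the highest of LEW for every kept cartilage collagen probe set.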

How the results depend on the processing

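Of the 57 called collagen differences, 36 were called under every alternative run, 21 were lost under at least 1 and 0 changed direction. Not all losses came from leaving out arrays. No filter and no trend each ended calls of Col5a1, Col4a1, Col4a2, Col6a1, Col6a2, Col12a1, Col22a1 and Col27a1, and no trend also ended 1 of Col11a2. The 8 arrays of a pair alone ended calls of Col5a3, Col4a2, Col6a2, Col12a1 and Col22a1. Median centring ended calls of Col5a1, Col4a1, Col6a2 and Col22a1. A replicate block ended calls of Col5a1 and Col6a2, and robust moderation that of Col27a1. The difference of Col1a2 (1387854_at) in F344 minus LEW, which was not called, changed sign: 0.0058 with quantile normalization, 0.015 with array weights and -0.043 to 0.029 when 1 array was left out. With 1 probe set per gene, which tested 34 members in place of 49, the counts were 5 (F344 minus LEW), 9 (F344 minus DA) and 2 (COP minus DA), where 15%, 18% and 12.4% of all probe sets tested were called. For F344 minus LEW, 5 of 34 was near the share of all. With the cartilage markers as a covariate they were 11 (LEW minus COP), 11 (LEW minus DA) and 10 (COP minus DA), where 14.2%, 12.4% and 11.3% of all were called, and the cause was not tested. When 1 array was left out the F-test called 16 to 27, and the counts ran from 7 to 13 (F344 minus LEW), 11 to 16 (F344 minus COP), 10 to 15 (F344 minus DA), 4 to 10 (LEW minus COP), 3 to 8 (LEW minus DA) and 4 to 10 (COP minus DA). Over all probe sets the shares called in those fits ran from 26.5 to 33.2% (F-test), 10.2 to 15%, 15.5 to 20.9%, 12.2 to 17.6%, 11.6 to 14.6%, 8.28 to 10.6% and 8.18 to 13.2% (the 6 comparisons in the same order).

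Replicate numbers did not pair the arrays: the deviations of same-numbered arrays from their strain means correlated between -0.17 and 0.088 over 24 pairs. With the replicate number as a block the counts were 10, 16 and 14 for F344 minus LEW, COP and DA, then 6, 7 and 7 for LEW minus COP, LEW minus DA and COP minus DA, and 21 for the F-test, with 13.0%, 18.9%, 15.5%, 13.2%, 9.98%, 11.2% and 29.3% of all probe sets called in the same order. Dim probe sets and the few arrays per strain limit what could be called.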
